A study of Mus musculus with 3 samples.

Results

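Txnip, Mlxipl, Mlxip, Mlx and Arrdc4, the glucose-responsive Txnip and ChREBP genes, were examined in chromatin of Min6 cells, sequenced after precipitation of the transcription factor Ets-1 (ChIP-seq). Every region was taken whose nearest gene, as named in the deposited files, was one of these 5 genes. That gave 35 of 543367 regions in the table that compares both viruses, 20 of 237322 peaks in the list of cells with the Ets-1 adenovirus and 21 of 339856 peaks in that of cells with the control adenovirus. Mlx had none in any file, and 16 regions belonged to Arrdc4, 11 to Mlxip, 5 to Mlxipl and 3 to Txnip. Min6 is a mouse insulinoma line that makes insulin, grown here in 25 mM glucose. Cells received an adenovirus that overexpresses Ets-1 (Ad-Ets-1) or a control adenovirus with GFP (Ad-GFP), each for 24 h, and chromatin of both was precipitated with the same Ets1 antibody. The third library was input chromatin, whose virus the labels do not state. Each group is 1 library of 1 cell line, so differences describe these libraries and carry no p-value. The promoter that drives Ets-1 in the virus is not given in the sources used here, and neither the amount of Ets-1 nor the expression that marks a β cell is measured by these files. The list named for overexpression is taken as Ad-Ets-1 and the one named Ctrl as Ad-GFP.

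ChREBP, encoded by Mlxipl, and its relative MondoA, encoded by Mlxip, are basic helix-loop-helix leucine zipper factors that bind DNA together with Mlx at carbohydrate response elements, a pair of E-boxes set a few bases apart, when glucose metabolism rises. Txnip and its relative Arrdc4 are among the genes they induce most strongly. Both are α-arrestins that limit glucose uptake, and Txnip also binds thioredoxin and is known in β cells as a glucose-induced promoter of cell death. Ets-1 belongs to the ETS family, whose members recognise DNA around the core GGAA.

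Depth was low. The Ad-Ets-1 library held 1938473 reads, the Ad-GFP library 1775757 and the input 3937473. A region counted 2 or fewer reads in 91.0%, 89.3% and 99.9% of cases, in the same order of libraries. For ratios a count of 0 was set at a floor of 3 reads, or 1.55, 1.69 and 0.762 RPM, the usual scaling to library totals. Counts of 1 or 2 were left as they were, so ratios against the floor cannot be ranked beside other ratios. Even numbers made up 72.0% of the nonzero counts with Ad-Ets-1 and 74.5% with Ad-GFP, against 19.0% in the input. Ratios are of reads scaled to library totals, and where neither library is at 0 each has a 95% exact binomial interval that takes 2 reads as 1 fragment. The floor is in single reads instead, so on fragments a count of 0 would allow more reads than the floor. Intervals cover counting error only, and reads copied by PCR are not independent molecules. Regions were listed because a peak had been called in either library. A region called in 1 list alone therefore favours the count of that library, and no ratio or interval allows for this.

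The sequences that the results turn on are the DNA under the most read regions and the promoters of the genes that ChREBP and Mlx are known to act on. They were read from RefSeq GRCm38.p6, which has the coordinates of the mm10 build named for the files, and are given 5′ to 3′ in the direction of the gene. Capitals mark GGAA with its longer forms CCGGAA and GGAAGT, the E-box CACGTG, and both E-boxes of a carbohydrate response element searched as CACGNG, any 5 bases and CACGNG again. All words were searched on both strands, so GGAA also appears as TTCC, and positions count from the first base of the principal transcript in GENCODE M21, set to 0. Untranslated bases are left out.
Txnip promoter, chr3:96557707-96557956, plus strand: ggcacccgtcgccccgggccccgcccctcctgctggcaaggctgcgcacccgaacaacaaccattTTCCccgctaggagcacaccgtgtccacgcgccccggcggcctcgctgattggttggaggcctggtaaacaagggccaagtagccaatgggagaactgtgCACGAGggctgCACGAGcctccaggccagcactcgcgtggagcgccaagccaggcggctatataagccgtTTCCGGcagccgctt
Txnip exon 1 region, coding part, chr3:96558236-96558484, plus strand: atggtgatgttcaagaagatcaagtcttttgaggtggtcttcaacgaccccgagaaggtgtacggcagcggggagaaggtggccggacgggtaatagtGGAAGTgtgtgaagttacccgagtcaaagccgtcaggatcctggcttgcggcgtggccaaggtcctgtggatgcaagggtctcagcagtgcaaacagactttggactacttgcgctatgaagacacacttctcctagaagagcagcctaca
Txnip exon 5, 200 bases at the Ad-GFP summit, chr3:96559561-96559760, plus strand: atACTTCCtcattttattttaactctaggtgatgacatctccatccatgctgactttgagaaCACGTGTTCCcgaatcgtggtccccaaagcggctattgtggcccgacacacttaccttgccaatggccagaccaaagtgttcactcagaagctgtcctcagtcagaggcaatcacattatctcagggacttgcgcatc
Mlxipl exon 9, 200 bases at an Ad-Ets-1 summit, chr5:135132449-135132648, plus strand: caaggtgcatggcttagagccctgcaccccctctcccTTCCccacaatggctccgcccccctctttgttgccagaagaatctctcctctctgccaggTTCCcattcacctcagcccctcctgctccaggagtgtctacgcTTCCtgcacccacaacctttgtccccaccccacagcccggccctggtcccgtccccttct
Mlxipl exon 13, 200 bases at an Ad-Ets-1 summit, chr5:135133737-135133936, plus strand: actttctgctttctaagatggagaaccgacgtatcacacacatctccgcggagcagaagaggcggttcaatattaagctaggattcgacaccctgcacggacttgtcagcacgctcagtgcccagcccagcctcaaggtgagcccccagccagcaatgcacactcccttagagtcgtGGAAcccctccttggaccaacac
Arrdc4 promoter, chr7:68749242-68749488, minus strand: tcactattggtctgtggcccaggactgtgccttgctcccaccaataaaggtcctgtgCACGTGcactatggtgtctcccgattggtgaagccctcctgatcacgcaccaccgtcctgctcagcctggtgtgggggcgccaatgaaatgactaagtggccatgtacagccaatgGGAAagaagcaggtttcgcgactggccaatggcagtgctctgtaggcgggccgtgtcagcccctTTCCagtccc
Mlx promoter, chr11:101087040-101087276, plus strand: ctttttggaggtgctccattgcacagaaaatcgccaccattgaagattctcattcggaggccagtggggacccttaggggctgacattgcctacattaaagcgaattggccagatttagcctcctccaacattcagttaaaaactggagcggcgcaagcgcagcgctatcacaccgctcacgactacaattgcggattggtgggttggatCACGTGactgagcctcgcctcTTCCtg

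The 35 regions were split by a cut at 5 reads, although their counts run on without a gap there. Of these regions 8 held 5 or more reads in either precipitated library, where 4.13% of all regions did, and all 8 overlapped an exon of a protein-coding gene. Among all regions with a gene name and that many reads, 16.7% overlapped one. An overlap could be partial, with 163 exon bases of 956 in the region over Arrdc4 exon 6. The other 27 held at most 3 reads with Ad-Ets-1, at most 4 with Ad-GFP and at most 1 in the input. Of these 27, 3 overlapped an exon, beside 10.4% of all named regions with fewer than 5 reads. By the deposited classes 8 of the 35 regions were promoters, or 22.9% beside 7.69% of all regions, and 15 were distal intergenic, or 42.9% beside 52.6%. Both lists had called 5 of the 35 regions, or 14.3%, beside 6.13% of all regions. The Ad-Ets-1 list alone had called 14 and the Ad-GFP list alone 16, from lists of 237322 and 339856 peaks. The same shares over all regions are not given here, so these 2 counts are not read as high or low.

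**Figure D1:**
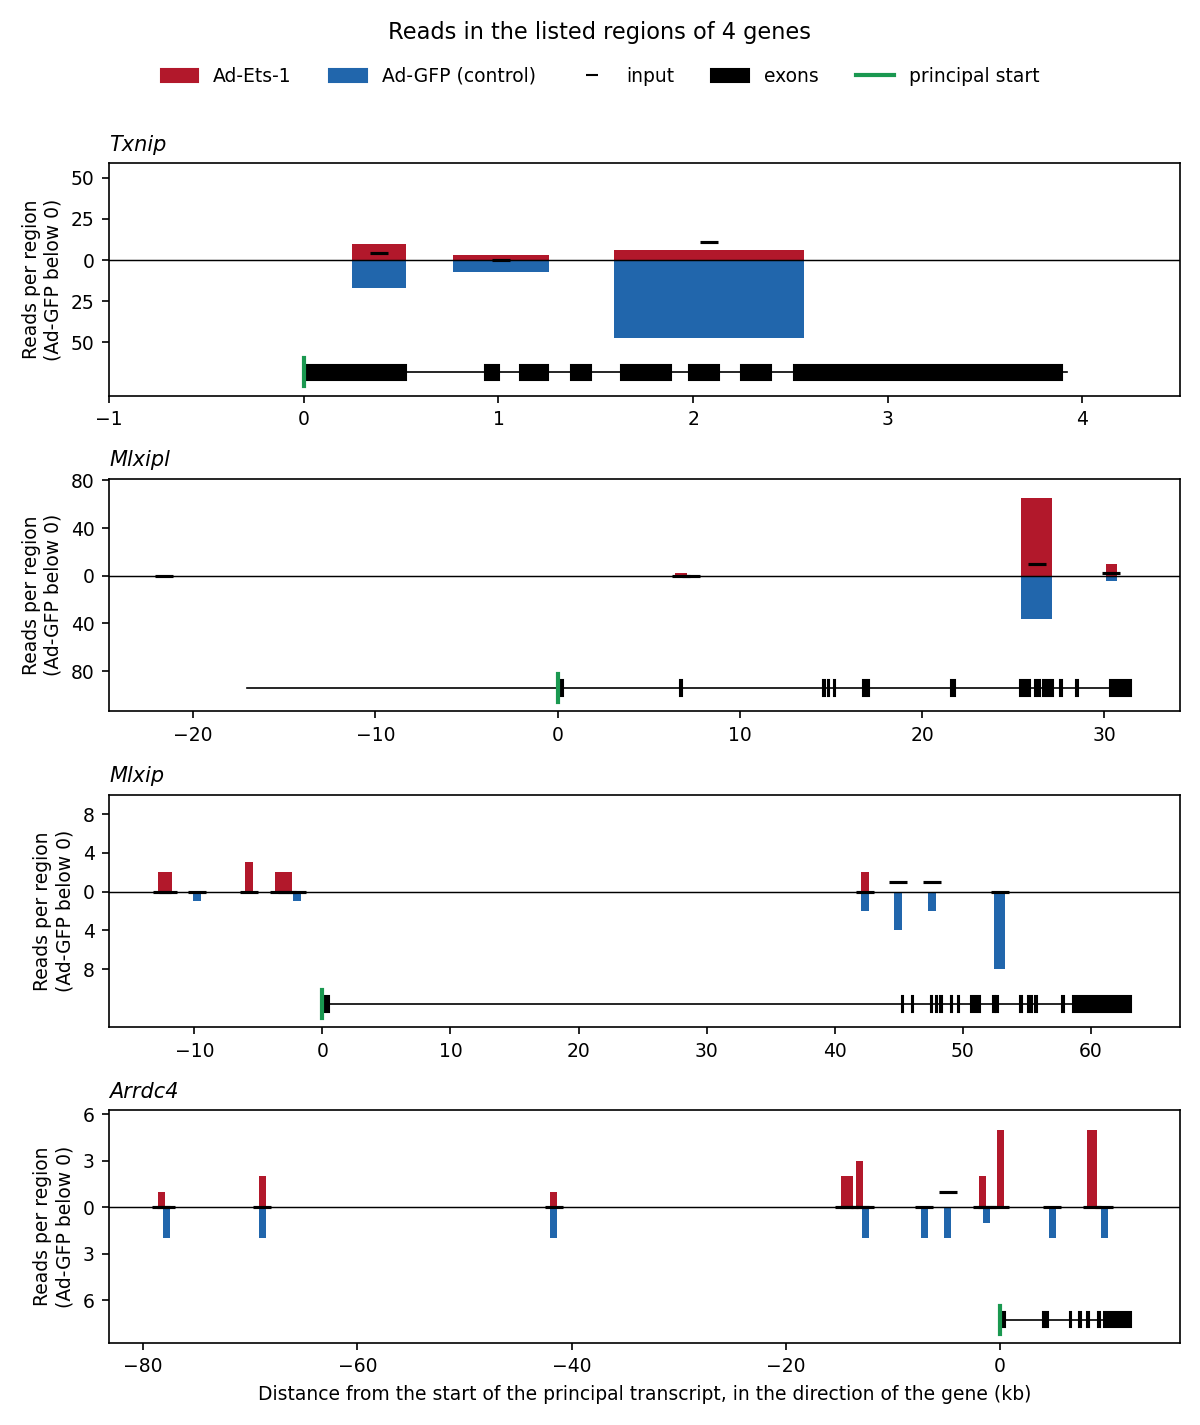
Reads per region along Txnip, Mlxipl, Mlxip and Arrdc4, with Ad-Ets-1 reads drawn upward, Ad-GFP reads downward and input reads as dashes, against distance in kb from the principal start; boxes are exons of the principal transcript, and narrow regions are widened to be seen. The most read regions lie at Txnip between the start and exon 8 and at Mlxipl over exons 9 to 14, where the Ad-Ets-1 library held 65 reads.

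Txnip, on chromosome 3 (96557957 to 96561883, plus strand), had 3 regions, all inside the gene and all classed as promoter in the deposited files. For the region in exon 1 the deposited distance is that to the principal start, whereas for the other 2 it is to later starts, of short transcripts inside the gene. The region in exon 1 (96558209 to 96558484) began 249 bases after the start and covered 249 coding and 27 untranslated bases. It held 10 reads with Ad-Ets-1, 17 with Ad-GFP and 4 in the input, a ratio of Ad-Ets-1 to Ad-GFP of 0.539 (95% interval 0.134 to 1.69). The interval spans 1, so no difference could be detected at this depth. By the authors' deposited table its peak had a fold of 4.17 with Ad-Ets-1 and 4.98 with Ad-GFP, 566th and 129th by fold in their lists. Whether these folds and the q values are over the input or over the same library is not known from the labels or headers. The single GGAAGT in the coding part of this region lay 21 bases from the Ad-Ets-1 summit and 7 bases from the Ad-GFP summit; 14.5% of 2605 promoter regions with 5 or more reads held that word in a central window of the same length.

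The Txnip region over exons 5 to 8 (96559556 to 96560529) had the ratio between viruses farthest from 1 among the 5 of these 8 regions with reads in both precipitated libraries. It held 6 reads with Ad-Ets-1, 47 with Ad-GFP and 11 in the input, and the Ad-GFP list alone had called it. By the authors' deposited table its peak there had a fold of 3.87, 436th in the list. The ratio of Ad-Ets-1 to Ad-GFP was 0.117 (0.0221 to 0.377), with the whole interval below 1. The region was listed only through its Ad-GFP peak, whose bounds it has. That selection favours a high Ad-GFP count and a low ratio, and the interval does not allow for it. After scaling to library totals it stood at 1.11 times the input with Ad-Ets-1 and 9.47 times with Ad-GFP. Of its 974 bases 614 were coding, 357 intronic and 3 untranslated. Among 76 promoter regions with 20 or more reads in either precipitated library, 8 had a ratio this low or lower, this one included. At the Ad-GFP summit, GGAAGT lay 92 bases away and CACGTG 32 bases away, and that CACGTG ran directly into a TTCC. Of 26237 Ad-GFP promoter summits, 11.3% held GGAAGT and 2.26% held CACGTG in 200 bases.

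Between these, the region over exons 2 and 3 (96558728 to 96559218) held 3 reads with Ad-Ets-1, 7 with Ad-GFP and 0 in the input, a ratio of 0.393 (0.0414 to 3.20). The Ad-GFP count was thus the higher in all 3 regions, of which 2 had been called in the Ad-GFP list alone. That selection favours Ad-GFP reads, and the sum over the gene carries it too. Read densities, in RPM per kb, were 18.7, 3.15 and 3.18 with Ad-Ets-1 for exon 1, exons 2 to 3 and exons 5 to 8, against 34.7, 8.03 and 27.2 with Ad-GFP. Summed over the gene, Txnip had 19 reads with Ad-Ets-1, 71 with Ad-GFP and 15 in the input, a ratio of 0.245 (0.113 to 0.523). Without the region over exons 5 to 8 the sums were 13 and 24 reads and the ratio 0.496 (0.178 to 1.47), so the difference over the gene rests on that region.

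No listed region covered the Txnip promoter itself. The only match to the carbohydrate response element, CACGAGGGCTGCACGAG, lay 88 to 72 bases before the start, 321 bases from the nearest region. Windows of that length before 32619 RefSeq starts held such an element in 0.0460% of cases. CCGGAA lay on the minus strand 18 to 13 bases before the start, and 12.1% of those windows held it.

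**Figure D2:**
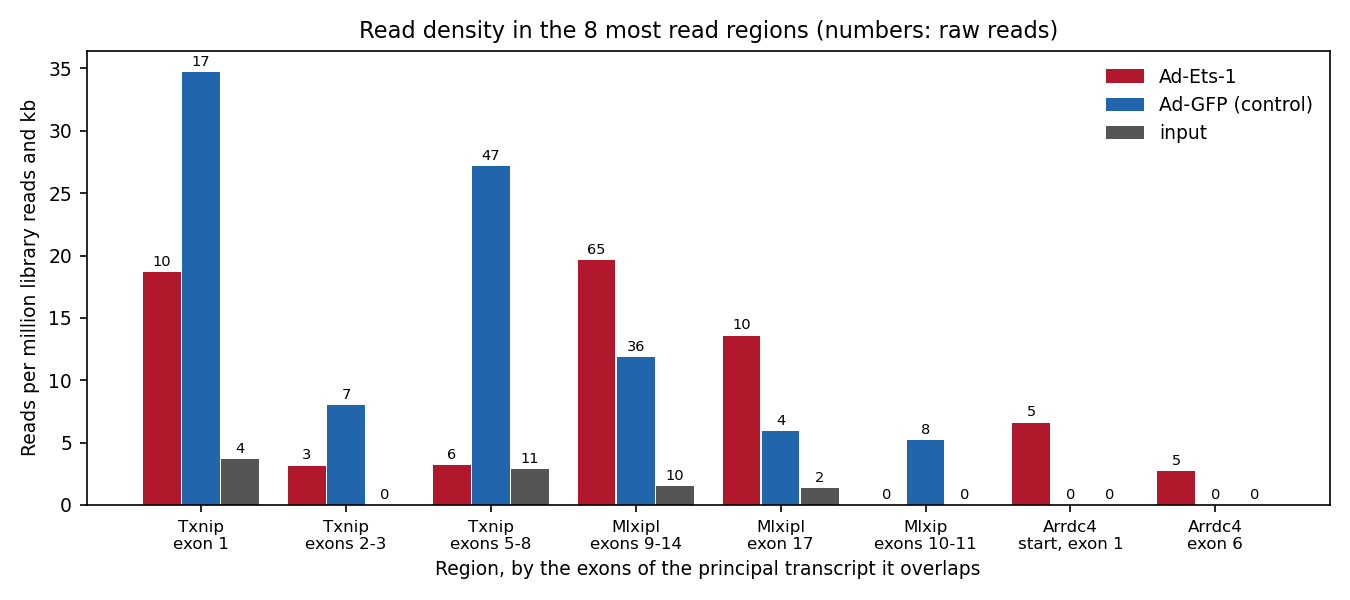
RPM per kb in the 8 regions with 5 or more reads in either precipitated library, for the Ad-Ets-1, Ad-GFP and input libraries, with raw reads above the bars; each bar is 1 library. Ad-GFP bars are the taller at Txnip and Mlxip, and Ad-Ets-1 bars at Mlxipl and Arrdc4.

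Mlxipl, on chromosome 5 (135089890 to 135138382, plus strand), had the most Ad-Ets-1 reads of the 5 genes, and nearly all lay at its 3′ end. The region over exons 9 to 14 (135132360 to 135134066) held 65 reads with Ad-Ets-1, 36 with Ad-GFP and 10 in the input. All 3 libraries stood well above their usual count there, with Ad-Ets-1 highest. The ratio of Ad-Ets-1 to Ad-GFP was 1.65 (0.919 to 3.17), an interval that spans 1. Scaling by the listed regions in place of library totals raised every ratio 1.42-fold, or by 0.51 on the log2 scale, and gave 2.35 (1.31 to 4.51) here, clear of 1. With that scaling the median over 2608 promoter regions with 5 or more reads was 2.17, and 56.0% were at least 2-fold higher. Among 76 promoter regions with 20 or more reads the median with library totals was 1.00. Of these 76, 66 had a ratio as low as that of Mlxipl or lower, this one included. With library totals the Mlxipl region stood at 13.2 times the input with Ad-Ets-1 and 7.98 times with Ad-GFP. The medians over regions with 5 or more reads and some in the input were 8.12 and 8.87 times. Both are coarse, since only 585 of all regions held 3 or more input reads. The Ad-GFP median is the value that 4 reads give over 1 input read. By Ad-Ets-1 reads the Mlxipl region was 35th of 2608 promoter regions with 5 or more reads.

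The deposited promoter class of this region comes from a pair of short transcripts that start inside it, since it begins 25442 bases after the principal start and covers 1036 coding and 671 intronic bases. Of 23483 promoter regions whose gene has a principal transcript, 43.1% lay more than 3 kb from every principal start of that gene, and of the 8 member regions classed as promoter this was the only one. By the authors' deposited table the Ad-Ets-1 list had 2 peaks inside it, with folds of 5.33 and 5.86 and −log10 q of 2.95 and 3.86. The Ad-GFP list had 1, with a fold of 5.03 and a −log10 q of 2.60, and its summit lay 542 bases from the stronger Ad-Ets-1 summit. The exon 9 summit fell within a GGAA, and at exon 13 the nearest GGAA lay 78 bases away; 87.5% of 18166 Ad-Ets-1 promoter summits had a GGAA in 200 bases, so most of them share that word.

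A further Mlxipl region reached from the last intron over exon 17 into the untranslated end (135137112 to 135137491). It held 10 reads with Ad-Ets-1, 4 with Ad-GFP and 2 in the input, a ratio of 2.29 (0.375 to 24.0). The other 3 regions of the gene held 2 or fewer reads in each library. No region of Mlxipl lay at the principal start, and the 250 bases before its RefSeq start held none of the words, although 93.4% of such windows hold a GGAA. Summed over the gene, 77 reads with Ad-Ets-1 stood beside 44 with Ad-GFP and 12 in the input, a ratio of 1.60 (0.939 to 2.88). This interval and that of Txnip, 0.113 to 0.523, did not overlap. Without its region over exons 5 to 8, called in the Ad-GFP list alone, the Txnip interval was 0.178 to 1.47 and overlapped that of Mlxipl.

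Mlxip and Mlx, the relative and the partner of ChREBP, gave little signal. Mlxip (chromosome 5, 123394798 to 123457932, plus strand) had 11 regions, of which only the one over exons 10 and 11 (123447249 to 123448116) reached 5 reads. It held 0 reads with Ad-Ets-1, 8 with Ad-GFP and 0 in the input, or 0.344 times Ad-GFP after scaling, with Ad-Ets-1 set at its floor of 3 reads. Its strongest Ad-Ets-1 peak (123388875 to 123389229) had a fold of 2.78 by the authors' deposited table and 3 reads, and its strongest Ad-GFP peaks shared a fold of 1.87. Its only promoter region, 1843 bases before the start, held 0 reads with Ad-Ets-1, 1 with Ad-GFP and 0 in the input. Summed, the gene had 13 reads with Ad-Ets-1, 18 with Ad-GFP and 2 in the input, a ratio of 0.662 (0.225 to 2.15).

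Mlx (chromosome 11, 101087277 to 101092207, plus strand) was the nearest gene of no region, by name or by gene identifier, and no region overlapped it or the 3 kb before it. The closest regions lay 8246 bases before and 5195 bases after the gene, named for Hsd17b1 and Psmc3ip, and each held 0 reads with Ad-Ets-1 and 2 with Ad-GFP. Of 2235 protein-coding genes within 25% of its length, 24.9% were likewise named by no region. The Mlx promoter held a CACGTG 50 to 45 bases before the start and a GGAA on the minus strand 29 to 26 bases before it; 5.60% of promoter windows of that length held CACGTG.

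Arrdc4, the other glucose-induced α-arrestin here, lies on chromosome 7 (68736995 to 68749241, minus strand) and was the only one of the 5 genes with a listed region across its principal start. That region (68749014 to 68749404) held 5 reads with Ad-Ets-1, 0 with Ad-GFP and 0 in the input, or 1.53 times the Ad-GFP floor of 3 reads. It was called with Ad-Ets-1 alone, with a fold of 3.68 and a −log10 q of 1.54 by the authors' deposited table, 1877th by fold in that list. Of its bases, 175 were untranslated, 53 coding and the rest upstream. A GGAA lay 74 to 71 bases before the start and another, on the minus strand, 10 to 7 bases before it, both inside the region, whereas the CACGTG 190 to 185 bases before the start lay outside it.

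The region over Arrdc4 exon 6 (68740172 to 68741127) likewise held 5 reads with Ad-Ets-1, 0 with Ad-GFP and 0 in the input. The other 14 regions held at most 3 reads with Ad-Ets-1, at most 2 with Ad-GFP and at most 1 in the input, and reached out to 78186 bases before the start. Its strongest Ad-GFP peaks shared a fold of 1.87 by the authors' deposited table, the median of that list. Summed, Arrdc4 had 23 reads with Ad-Ets-1, 17 with Ad-GFP and 1 in the input, a ratio of 1.24 (0.472 to 3.28). Its Ad-Ets-1 reads at the start and in exon 6 stood beside scattered reads of both precipitated libraries elsewhere. Over the gene no difference could be detected at this depth.

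Across the 8 most read regions the direction was mixed. At least 2-fold higher with Ad-Ets-1 was 1 of 8, Mlxipl exon 17, beside 19.3% of all 22425 regions with 5 or more reads; at least 2-fold lower were 3 of 8, Txnip exons 2 to 3, Txnip exons 5 to 8 and Mlxip, beside 38.7%. The median ratio of Ad-Ets-1 to Ad-GFP was 1.03 over the 8 and 0.763 over all those regions. Neither share of the 8 stands far from its background. Among the 5 of promoter class, 3 of them at Txnip, 0 were at least 2-fold higher and 2 at least 2-fold lower. Shares over 2608 promoter regions with 5 or more reads were 27.2% and 29.2%. The median ratio was 0.539 over the 5 and 1.53 over the 2608, so within this class the members stood lower, not higher. That 1.53 is also what 5 reads give against the floor. Mlxip was counted with Ad-Ets-1 at its floor, as were background regions with a count of 0. Both Arrdc4 regions, with 5 and 0 reads, stood at 1.53 against the Ad-GFP floor and so were not counted as higher. With a floor of 1 read they gave 4.58, so the count of higher regions depends on the floor. Background shares with that floor are not given here. With scaling by listed regions 4 of 8 were higher and 2 lower, beside 47.6% and 14.3%. A q of at most 0.05 was met by 4 of 20 Ad-Ets-1 peaks and by 2 of 21 Ad-GFP peaks, beside 1.38% and 0.827% of all peaks. A deposited fold of at least 3 was met by 5 of 20 Ad-Ets-1 peaks and 3 of 21 Ad-GFP peaks, beside 1.77% and 1.02% of all peaks, and the promoter class by 5 of 20 and 6 of 21, beside 7.66% and 7.73%. The peaks at that q were both Mlxipl peaks over exons 9 to 14, Txnip exon 1 and the Arrdc4 start with Ad-Ets-1, and Mlxipl and Txnip exon 1 with Ad-GFP. Thus 3 of the 4 genes named in the files with Ad-Ets-1 and 2 with Ad-GFP had a promoter peak at that q, beside 1.66% and 0.750% of 19054 named genes. Promoter is the deposited class here. The Mlxipl peaks lay in a region that begins 25442 bases after the principal start, and the Txnip peaks in exon 1. Mlx, named in no file, is not counted. The input was high in only some of these regions. Of the 35, 3 held 3 or more input reads, Txnip exon 1, Txnip exons 5 to 8 and Mlxipl exons 9 to 14, beside 0.108% of all regions. Among the 8, Mlxipl exon 17 held 2 input reads and the rest held 0. Txnip exons 5 to 8 and Mlxipl exons 9 to 14 were 974 and 1707 bases wide, beside a median of 249 over all regions. That share does not allow for width. The part of the input in the precipitated counts was not tested.

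**Figure D3:**
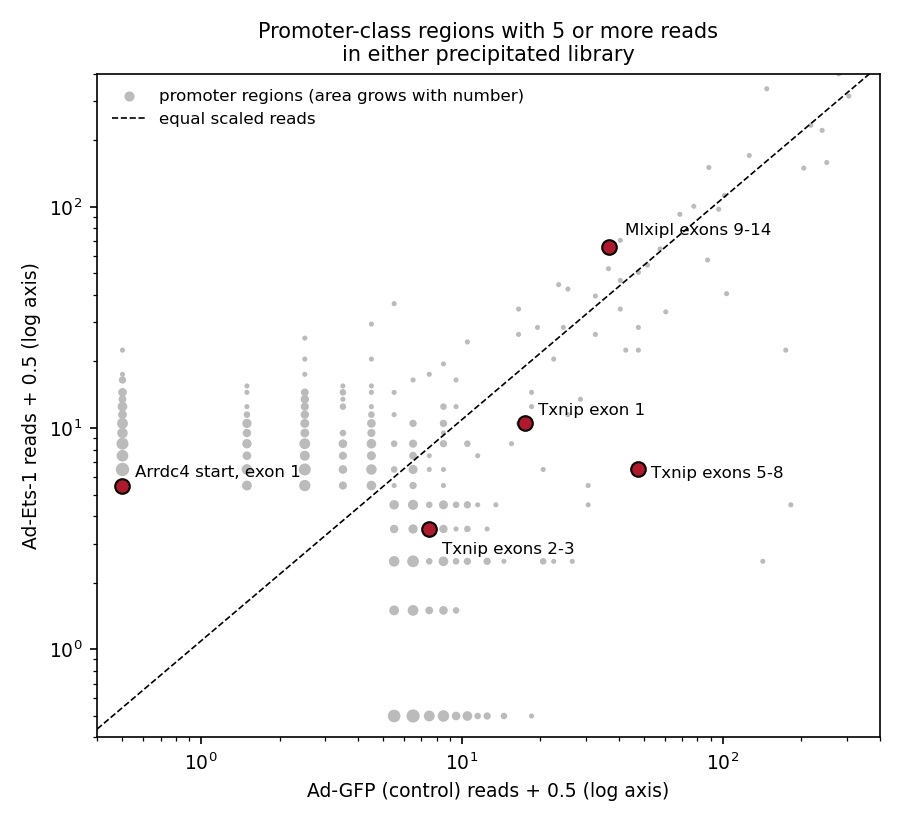
Ad-Ets-1 reads against Ad-GFP reads, each plus 0.5 on log axes, for promoter-class regions that held at least 5 reads in either; 20 of 2608 regions lie beyond the axes, the dashed line marks equal scaled reads, and red points are regions of the 5 genes. Txnip exons 5 to 8 lies far below the line, Mlxipl exons 9 to 14 a little above it, and Arrdc4 at the left edge with 0 Ad-GFP reads.

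Promoter regions with a like pattern were sought among the 2608 by Euclidean distance in the deposited RPM values, on the log2 scale, over the 3 libraries. Nearest to Txnip exons 5 to 8 stood Dnmt1, a DNA methyltransferase gene, at a distance of 1.20 with 5 reads for Ad-Ets-1, 30 for Ad-GFP and 5 for the input. Sfi1, Mstn and Fgf21 stood at 1.25 to 1.49, so none of these was a close match. Nearest to Txnip exon 1 was Mettl3, an RNA methyltransferase gene, at 0.253 with 12, 18 and 4 reads in the same order of libraries, and Chrm3, Dnmt3a and Iqch were among the next. Nearest to Mlxipl exons 9 to 14 were Slc5a6, a vitamin transporter gene, at 0.876 with 46, 40 and 17 reads, then Irs1, Mafa, Pak7 and Litaf at up to 1.25. Likeness here rests on 3 values for each region.

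The wider pathway was followed through 69 genes in 4 lists, of which 62 were named in the files. A promoter peak was listed for 28 of these with Ad-Ets-1 and 34 with Ad-GFP, or 45.2% and 54.8%, beside 37.7% and 48.6% of all named genes. Partners in the Mlx network, such as Max and Mnt, had 6 of 10 with Ad-Ets-1 and 4 of 10 with Ad-GFP. Other α-arrestins and the thioredoxin system had 3 and 6 of 10, ChREBP targets 11 and 14 of 23, and genes upstream of ChREBP or of glucose entry 8 and 10 of 19. At a q of at most 0.05 there were left 3 of the 62 with Ad-Ets-1, Mnt, Gpd1 and Hk1, and 2 with Ad-GFP, Fasn and Fgf21, beside 1.66% and 0.750% of all named genes.

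**Figure D4:**
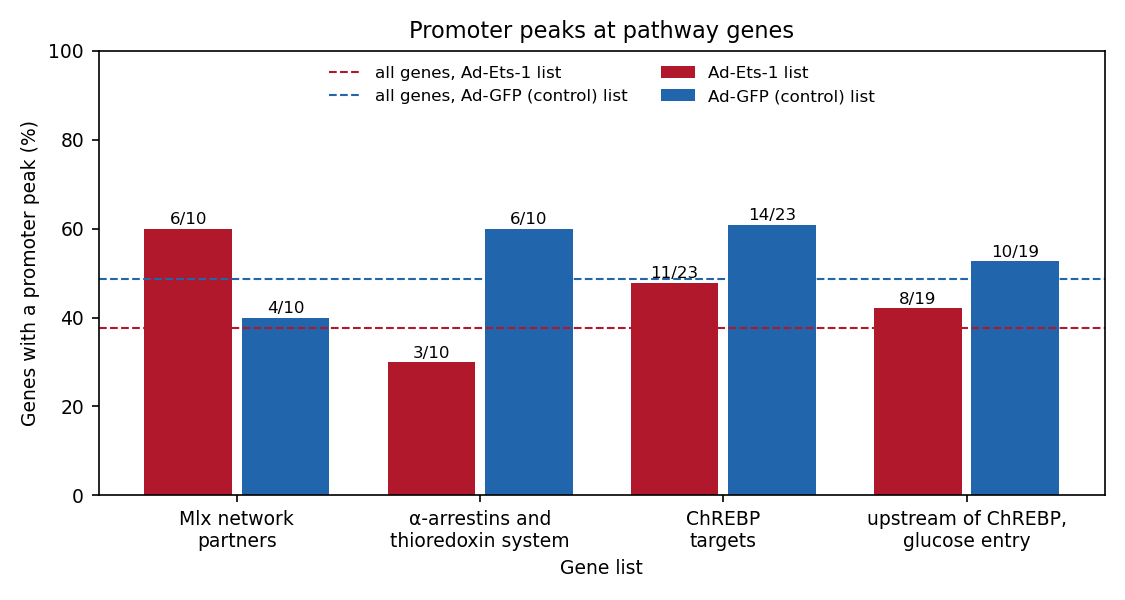
Percentage of the genes of each list, among those named in the files, with a promoter peak in the Ad-Ets-1 list and in the Ad-GFP list, with dashed lines for all named genes at 37.7% and 48.6%. The Mlx network partners are the only list with the higher share in the Ad-Ets-1 list, at 6 of 10 and 4 of 10.

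The members of these lists with the most promoter reads again carried few. Among network partners, Mnt, a repressor that pairs with Max, held 9 reads with Ad-Ets-1 and 0 with Ad-GFP, or 2.75 times the floor, and Mxd4, another repressor, held 7 and 0. Max, the shared partner of the Myc proteins, held 2 and 6, a ratio of 0.305 (0.00582 to 3.80), and Mga held 0 and 4. Txn2, the mitochondrial thioredoxin, held 8 and 0, whereas Arrdc2 held 0 and 5, Txnrd2 0 and 4 and Prdx3 0 and 2.

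Among ChREBP targets, Fgf21, a metabolic hormone, held 4 reads with Ad-Ets-1, 30 with Ad-GFP and 4 in the input, a ratio of 0.122 (0.0136 to 0.525). Fgf21 was named for its read count and met the q cut with Ad-GFP alone. That selection favours a high Ad-GFP count, and the interval does not allow for it. The intervals of Max, Klf10 and Acly spanned 1. Klf10, a glucose-induced transcription factor, held 7 with Ad-Ets-1, 1 with Ad-GFP and 5 in the input, a ratio of 6.41 (0.363 to 180). The count of 1 was not raised to the floor, whereas Mxd4 with 7 and 0 stood at 2.14 against it. For Klf10 the input was also high. Its input count was past the 3 reads that few regions reach. Acly, which makes cytosolic acetyl-CoA, held 6 with Ad-Ets-1 and 2 with Ad-GFP, a ratio of 2.75 (0.221 to 144). Fasn, the fatty acid synthase, held 0 and 6, or 0.458 times Ad-GFP with Ad-Ets-1 at its floor. Upstream, Hk1, a hexokinase that β cells normally keep low, held 10 and 0, or 3.05 times the floor, the glucose transporter Slc2a1 held 5 and 0, and the coregulators Crebbp and Hcfc1 held 4 and 0 each. Of the 14 promoter regions of the lists with 5 or more reads, 6 were at least 2-fold higher with Ad-Ets-1 and 5 at least 2-fold lower, beside 27.2% and 29.2% of all promoter regions with that many reads. With scaling by listed regions 8 were higher and 4 lower, beside 56.0% and 11.6%.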

How the data were processed

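The 3 files cover 2 precipitated libraries and 1 input. The submitters' processing notes name FastQC, BWA 0.7.12, Trimmomatic, MACS2 2.1.0 and mm10, without settings. Per the file headers, the authors deposited −log10 p and −log10 q values, a score and a signal value, taken as the peak caller's fold (a ratio), in each peak list; whether the input was the control in peak calling is not stated. The authors deposited in the comparison table read counts in every library, RPM values made as count plus 1 (used only to find like regions), ratios of these and their log2 value, per the file headers. 61.1% of compared regions carry no gene name and could not enter.

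Library totals were recovered from counts and RPM, the same within 1% for every region. Peak starts were raised by 1. A library at 0 was set at a floor of 3 reads, which gives no interval and no limit of the true ratio, and a pair of libraries at 3 or fewer got no ratio. Exons, principal transcripts and untranslated ends come from GENCODE M21. Regions of the 5 genes were named where they held at least 5 reads in either precipitated library or 3 in the input, with the strongest peak of each gene and list. List genes were the 4 with most promoter reads per list, and up to 5 regions were named as most alike; an item that this rule selects is not reported here. The 5 genes, the lists and these rules were chosen with earlier results of these data known. Alternatives were another scaling, region minimum, assignment by coordinates, floor, interval and peak thresholds. Tested on simulated counts for Ad-Ets-1 against Ad-GFP, 95.4% of 87 intervals held a true ratio of 1 and 97.5% of 200 held a true ratio of 4. These counts were drawn as pairs of reads, as the interval assumes. They followed regions with 20 or more reads over both precipitated libraries, so intervals on fewer reads were not tested. Software comprised numpy 2.4.6, scipy 1.17.1, pysam 0.24.0, pandas 2.3.3 and matplotlib 3.10.9 in Python 3.11.15.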

Additional observations from a re-analysis of the deposited data

How the results depend on the processing

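No paired analysis was possible because there is 1 library in each group. The summed ratio of Ad-Ets-1 to Ad-GFP stayed within its main interval under 15 of 16 alternatives for the 4 genes with reads; with regions of at least 3 reads only, Arrdc4 gave 3.97 against the floor. Mlxip gave 0.229 under that minimum, 0.262 with regions assigned by coordinates and 1.19 without its most read region; Arrdc4 gave 2.56 by coordinates and 0.970 without one of its most read regions. Scaling by listed regions without the top 1% put Txnip at 0.349 (0.160 to 0.745) and Mlxipl at 2.28 (1.34 to 4.09), the second now clear of 1. The median over promoter regions with 5 or more reads was 2.17 with that scaling. On single reads in place of fragments, the interval of Mlxipl exons 9 to 14 was 1.08 to 2.56. With a floor of 1 read, both Arrdc4 regions gave 4.58 and Mlxip exons 10 to 11 gave 0.115. Peaks of the 5 genes numbered 4, 5 and 5 of 20 with Ad-Ets-1 at q of at most 0.05, at a deposited fold of at least 3 and in the promoter class, and 2, 3 and 6 of 21 with Ad-GFP. The shares over all peaks, in the same order, were 1.38%, 1.77% and 7.66% with Ad-Ets-1 and 0.827%, 1.02% and 7.73% with Ad-GFP. List genes with a promoter peak at q of at most 0.05 numbered 3 of 62 with Ad-Ets-1 and 2 of 62 with Ad-GFP, beside 1.66% and 0.750% of all named genes. Depth limits most of these regions, since 6 of the 8 named held 17 reads or fewer in each precipitated library.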

Other observations

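Some regions inside Mlxipl and Mlxip carry no gene name in the deposited table, because the nearest start belongs to a non-coding gene, and so fall outside the count of 35. Inside Mlxipl, a region over exons 6 and 7 (chromosome 5, 135123660 to 135124017), nearest to the antisense gene Gm43500, held 10 reads with Ad-Ets-1, 8 with Ad-GFP and 1 in the input, a ratio of 1.15 (95% interval 0.246 to 5.77). In a long intron of Mlxip, a region (chromosome 5, 123420590 to 123421064) nearest to Gm43813 held 2 reads with Ad-Ets-1, 5 with Ad-GFP and 0 in the input, a ratio of 0.366 (0.00582 to 3.80). Both intervals span 1.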
